A study of Homo sapiens with 12 samples.

Results

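Cytosolic ribosomal protein genes were followed through 12 RNA-seq libraries from a pair of MDM2-amplified lung adenocarcinoma cell lines, A549 and H1792. Members were the protein-coding rows of the count table whose symbol begins with RPL or RPS and a digit, or is RPLP0, RPLP1, RPLP2 or RPSA, without the S6 kinases (RPS6K) and RPS27L. The rule found 87 of 20595 rows. Of these, 77 encode canonical ribosomal proteins (43 of the large subunit, 3 of its P stalk and 31 of the small subunit), 6 encode paralogs, 3 are readthrough symbols that join a ribosomal protein gene to its neighbour, and RPS19BP1 is caught by its name alone. The A549 line is described as p53 wild type and the H1792 line as p53 mutant. Cells of each line received DMSO or 1 µM RG7112, a nutlin-family inhibitor that occupies the p53-binding pocket of MDM2, for 48 h, with 3 libraries per group. Dose and time are those of the labels, and the column names of the count table give a lower dose. The p53 status is that of the series description, which some passages of the study text reverse. Each p53 background was represented by 1 line, so background, line and culture conditions cannot be told apart. No source states that replicates were separate cultures, so p-values measure the spread between these libraries, which may be technical.

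Ribosomal proteins coat the rRNA core of the small and large subunits and are needed in near-equal numbers. Their mRNAs are short, abundant and stable, and most begin with a 5′ terminal oligopyrimidine (TOP) tract through which mTORC1 signalling and LARP1 control their translation and stability. Several free ribosomal proteins, RPL5 and RPL11 foremost, bind MDM2 and restrain its activity toward p53 when ribosome assembly is disturbed.

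Promoter entries of RefSeq (GRCh38.p14) were found for 62 of the 77 canonical genes. Windows of 30 bases around the annotated start site, 15 before it and 15 from it, are shown for members whose values are given in the following paragraphs, with the longest run of C and T in capitals. RPL11, RPL13 and RPS19 have further annotated starts, whose longest runs are 4 to 7 bases, and the window with the longest run is shown.
RPL28 (chr19:55385917-55385946, plus strand): tcgcccctcgCCTTCCTCTTTCCgtctcag
RPLP2 (chr11:809952-809981, plus strand): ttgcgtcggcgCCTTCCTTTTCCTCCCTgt
RPL21 (chr13:27251543-27251572, plus strand): cggccccgCCTCTTTCCTTTCggccggaac
RPS19 (chr19:41860240-41860269, plus strand): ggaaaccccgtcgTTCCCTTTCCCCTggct
RPL11 (chr1:23691791-23691820, plus strand): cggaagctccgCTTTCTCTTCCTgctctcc
RPL13 (chr16:89560667-89560696, plus strand): ttgcggggccgCTTCCTTTCCgctcggctg
RPS14 (chr5:150449725-150449754, minus strand): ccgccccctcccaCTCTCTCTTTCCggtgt
RPL10A (chr6:35468386-35468415, plus strand): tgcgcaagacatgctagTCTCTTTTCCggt
RPL27 (chr17:42998404-42998433, plus strand): ccggggtgaaaggttagcggaagtgTCCTT
RPS4X (chrX:72277234-72277263, minus strand): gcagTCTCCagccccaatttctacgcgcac
The windows of RPL28, RPLP2 and 6 further members hold a run of at least 8 C or T at or near the annotated start, whereas those of RPL27 and RPS4X hold short runs only. A run of at least 8 C or T on the sense strand occurred in 51 of the 62 genes (82.3%) and in 16.5% of 27305 genes with an entry. On the opposite strand the shares were 3.23% and 13.5%. The letters CTTTC were present on the sense strand in 31 genes (50%) against 5.49% of all genes, and CTCTTTCC, which contains them, in 9 (14.5%) against 0.26%. A match is a feature of the annotated sequence and does not show where transcription started in these cells.

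Library totals ranged from 2011916 to 6218825 counts with a median of 3928092. The p53 targets CDKN1A and MDM2 rose in A549 by 3.58 and 2.99 on the log2 scale (edgeR quasi-likelihood test, adjusted p = 0.0251 and 0.0102) and were at 0.15 and −0.05 in H1792, where neither passed. Keratin KRT8 was at 11714 ± 1124 CPM (counts scaled to a library total of 1000000) in A549 DMSO and 990.1 ± 82.4 CPM in H1792 DMSO (SD, n = 3), while EPCAM was at most 5.03 CPM and NKX2-1 at most 0.0515 CPM in any group mean. Markers of blood and endothelial cells (PTPRC, CD3E, CD79A, PECAM1, VWF) stayed at or below 0.299 CPM in any group mean. COL1A1 reached 279 ± 23.8 CPM in H1792 DMSO and was at 5.95 ± 2.01 CPM in A549 DMSO. CD68 reached 65.9 ± 32.9 CPM in A549 RG7112, against 21.8 ± 12.2 CPM in A549 DMSO. DMSO replicate 3 of A549 stood apart in the ribosomal protein genes. It had the highest value of the 6 A549 libraries in 55 of the 77 canonical genes, and the median of their log2 deviations from the DMSO mean was 0.28, against −0.14 in each of the other DMSO libraries. Without it CDKN1A was at 3.35 in A549 (adjusted p = 0.0867) and MDM2 rose by 3.38 (adjusted p = 0.0181). A549 counts and medians of the members and the A549 calls of named genes are also given without it. RG7112 replicate 3 of A549 also stood apart, over genes with at least 20 counts in a pair of libraries, and stays in those fits. Against counting error, its chi-squared per degree of freedom was 25.6 and 17.2 with the other RG7112 libraries, and 5.38 between those. For DMSO replicate 3 the values were 18.2 and 19.9, and 5.93 between the other DMSO libraries. CDKN1A was at 203, 189 and 940 CPM in the RG7112 libraries of A549.

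Levels of the canonical genes spanned 1824-fold per length. With CPM divided by the median length of a gene's protein-coding transcripts, the mean over the 12 libraries ran from 6.84 CPM per kb for RPL39 to 12476 CPM per kb for RPL13, with a median of 1104. The highest levels belonged to RPL13, the stalk base protein RPLP0 (9670 CPM per kb), the small subunit protein RPS19 (9097 CPM per kb), the very short RPL41 (8312 CPM per kb) and RPL10 (7873 CPM per kb). In A549 DMSO, RPL41 (10195 ± 1936 CPM per kb), RPS19 (9488 ± 2159) and RPLP0 (8837 ± 923) were the 3 highest, and neighbours in this order differed by less than the SD of either over 3 libraries. In H1792 DMSO, RPL13 led at 23352 ± 1627 CPM per kb, and the next, RPLP0, was at 12545 ± 692. With the longest annotated transcript as the length, the median was 551 CPM per kb and the order changed: RPL41 (6944 CPM per kb), RPL13A (6240), RPLP0 (6090) and RPL8 (5592) led, and RPL13 and RPS19 were at 1975 and 1978.

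At the lower end, 11 canonical genes had fewer than 100 CPM per kb. These included RPS18 (12.3 CPM per kb), RPL36A (17.2), RPL7A (37.7) and RPL29 (43.9), whose proteins are found in every ribosome. The 10 members with the highest CPM held 44.1% of the summed CPM of all 87. At least 1 pseudogene was named after 77 members, and near-identical copies can take reads from a gene, so these low levels are uncertain. Across the canonical genes the level per length and the number of named pseudogenes had a Spearman rho of −0.19, a description over genes of the same libraries.

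**Figure D1:**
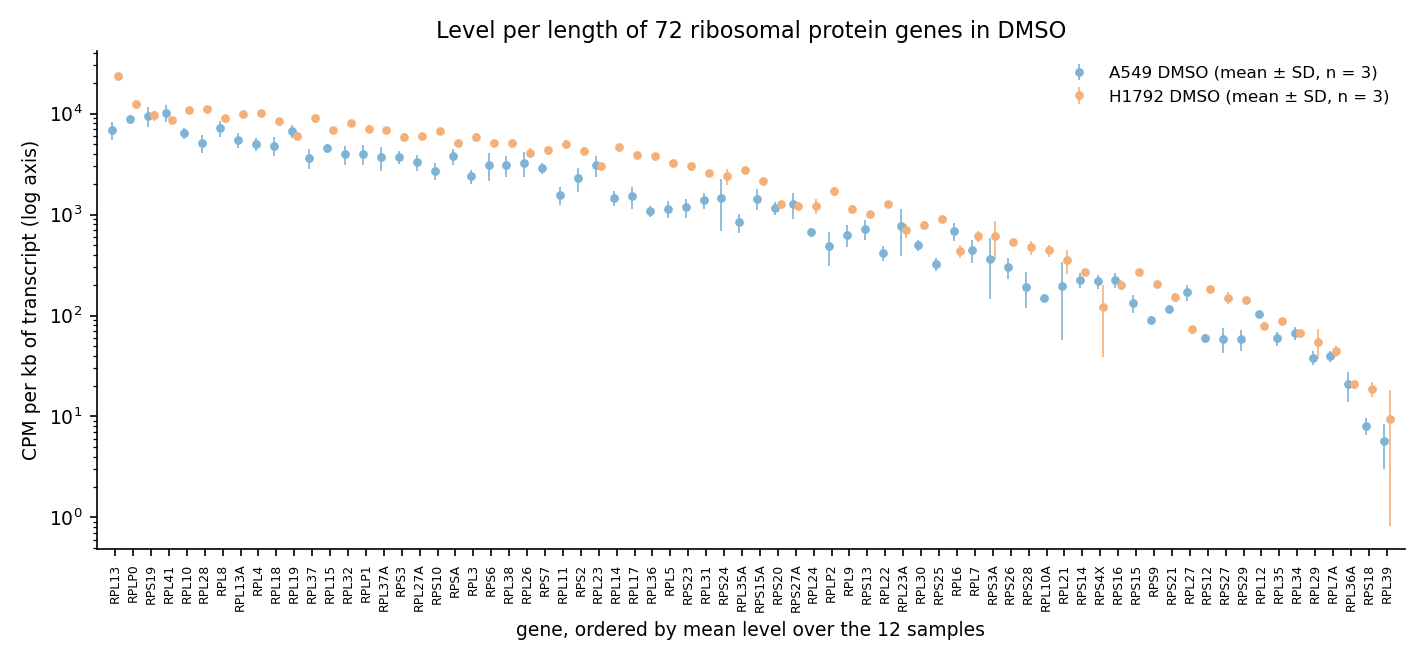
Level per length in the DMSO libraries of A549 (blue) and H1792 (orange) for 72 of the canonical genes, ordered by their mean over the 12 libraries. The y axis is CPM per kb of median transcript length on a log scale, points are means and bars SD (n = 3). Levels ran from RPL13 and RPLP0 at the left to RPS18 and RPL39 at the right, and most orange points lie above the blue ones.

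In H1792, the 87 rows took a smaller share of all counts in every RG7112 library than in any DMSO library. The DMSO libraries held 17.5%, 18.1% and 18.8% of their counts in ribosomal protein genes and the RG7112 libraries 15.5%, 13.7% and 13.7%, without overlap. Means were 18.2% ± 0.64 and 14.3% ± 1.04 (SD, n = 3; two-sided exact permutation test p = 0.1, the smallest p that 3 against 3 allows). Large subunit and stalk genes went from 13.7% ± 0.51 to 10.8% ± 0.78, and small subunit genes from 4.43% ± 0.15 to 3.49% ± 0.26, a ratio of 0.787 for both. In A549 the shares were 11.4%, 11.5% and 13.9% with DMSO and 10.4%, 10.6% and 11.5% with RG7112 (12.3% ± 1.42 and 10.8% ± 0.60, exact permutation p = 0.2), and the groups overlapped. Without DMSO replicate 3 the A549 difference went from −1.48 to −0.66 percentage points. A share falls when these mRNAs are fewer or when other RNAs rise, and the share alone cannot tell these apart. Nor can bulk libraries tell fewer expressing cells from less RNA per cell. The widest 95% Wilson interval of a library's share spanned 0.0948 percentage points, which covers counting error only.

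Mitochondrially encoded mRNAs held 2.43% ± 0.38 of the counts in A549 DMSO and 6.28% ± 0.74 in A549 RG7112 (exact permutation p = 0.1), and were at 0.95% ± 0.16 and 1.09% ± 0.20 in H1792. Their part in the ribosomal protein values was not tested.

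**Figure D2:**
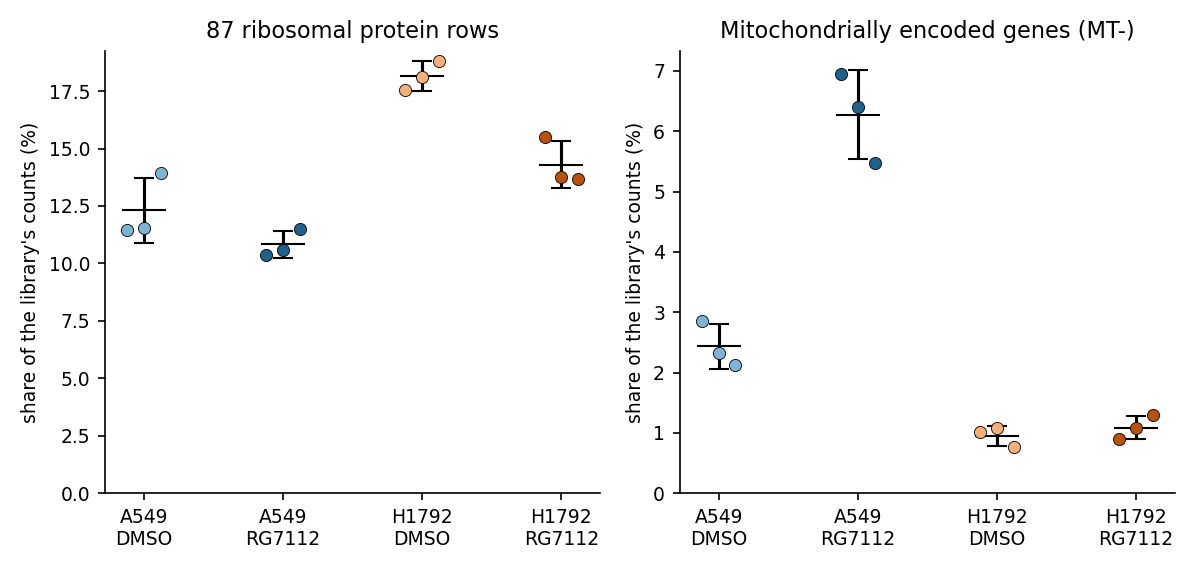
Share of each library's counts (%) in the 87 ribosomal protein rows (left) and in mitochondrially encoded genes (right), for 4 groups of 3 libraries. Points are libraries, long horizontal lines means and bars SD. The H1792 RG7112 libraries sit between 13.7% and 15.5%, below all H1792 DMSO libraries, whereas DMSO replicate 3 of A549 sits at 13.9%, above the other 5 A549 libraries.

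Per gene, 62 of the 84 members tested in H1792 fell (adjusted p under 0.05, edgeR over 9914 genes), against 16.5% of all genes tested, and 1 rose against 17.7%. The fall was general: 79 of 84 log2 fold changes were below 0, with a median of −0.55 over members and 0.01 over all genes tested. Of the 77 canonical genes 61 fell, 35 of 46 in the large subunit and stalk and 26 of 31 in the small subunit. The median was −0.57 in the first group and −0.59 in the second. All 41 canonical genes with at least 1000 CPM per kb fell (median −0.63), and 20 of the 36 below that level (median −0.49). Log2 fold changes of 33 of these 36 were below 0. The share that fell among other genes of like level was not computed. In 72 members every RG7112 library lay below every DMSO library, against 28.5% of all genes, and in 2 every one lay above, against 24.9%. RG7112 replicate 1 was the least lowered library, with the highest of the 3 RG7112 values in 67 of 77 canonical genes.

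The members stayed below all genes with each scaling. With counts scaled by library size alone 46 of the 62 still fell while the median of all genes moved to 0.27, so the members lay 0.56 below all genes with either scaling. Scaled by the summed counts of the members themselves, which sets the set near 0 by construction, the median was 0.05, with 14 lower and 16 higher, and that of all genes 0.62, a distance of −0.57. Across 9113 genes the H1792 fold change had a Spearman rho of −0.46 with GC content, and the canonical genes had a median GC of 50.4% against 50.3% over all. After a GC correction 68 members fell, with a median of −0.71 against −0.09 over all genes, a distance of −0.62. After a GC and length correction 64 did, with a median of −0.58 against −0.08, a distance of −0.50. The shares of all genes that fell in these corrected fits were not computed.

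RPL28, a large subunit protein, was at 7183, 7645 and 7473 CPM in the H1792 DMSO libraries and at 3955, 3474 and 3394 CPM with RG7112. The groups lay far apart, and the log2 fold change was −0.97 ± 0.07 (SE, adjusted p = 0.00272). The acidic stalk protein RPLP2, which helps to recruit elongation factors, went from 945, 1140 and 1169 CPM to 474, 453 and 416 CPM, a change of −1.20 ± 0.10 (adjusted p = 0.00272). Its partner RPLP1 changed by −0.58 ± 0.10 (adjusted p = 0.00724) and the stalk base RPLP0 by −0.36 ± 0.10 (adjusted p = 0.0294), so all 3 stalk genes fell by unequal amounts.

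The fold threshold of 1 on the log2 scale was passed downward by RPLP2, RPL21 and RPS2 among 5 of 84 members against 4.34% of all genes, and no member passed it upward, against 10.3%. RPL21 went from 178, 295 and 203 CPM to 94.3, 106 and 69.0 CPM (−1.25 ± 0.22). It has 66 named pseudogenes, so its level is uncertain. RPS2, at the mRNA entry side of the small subunit, went from 3244, 3837 and 3385 CPM to 1800, 1402 and 1537 CPM (−1.07 ± 0.10).

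RPS6, the substrate of the S6 kinases, went from 5341, 6124 and 5574 CPM to 4059, 3735 and 3565 CPM (−0.51 ± 0.07, adjusted p = 0.00417). RPSA, the laminin receptor precursor on the small subunit, changed by −0.59 ± 0.11 and RPL3, which lies close to the peptidyl transferase centre, by −0.56 ± 0.08. RPL22 changed by −0.50 ± 0.08, and its paralog RPL22L1 by −0.83 ± 0.26 (adjusted p = 0.0463). Among the most abundant members RPL13 changed by −0.81 ± 0.11, RPL10 by −0.46 ± 0.08 and RPL41 by −0.37 ± 0.10. None of these RG7112 values overlapped the DMSO values.

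The 16 canonical genes that did not pass in H1792 had levels of at most 840 CPM per kb. RPS13 (−0.29, adjusted p = 0.0507) and RPL10A (−0.38, adjusted p = 0.0517) missed the threshold narrowly, whereas RPL7 was at −0.05, RPL29 at 0.10, RPL6 at 0.32 and RPS4X at 1.06. RPS4X had DMSO values of 328, 101 and 124 CPM and RG7112 values of 360, 333 and 405 CPM (SE 0.44, adjusted p = 0.106), so the first DMSO library stood near the treated ones. Of the 51 canonical genes with a pyrimidine run of at least 8 at the annotated start, 42 fell with a median of −0.54. Among the 11 without such a run 7 fell, with a median of −0.52.

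Members also departed from each other. With the set's own summed counts as the reference, RPL21 (−0.64 ± 0.21), RPLP2 (−0.59 ± 0.08), RPS2 (−0.47 ± 0.07) and RPL28 (−0.37 ± 0.04) were among the 14 that lost share within the set. The 16 that gained share included RPLP0 (0.24 ± 0.03), RPL5 (0.24 ± 0.05), RPL41 (0.22 ± 0.04), RPL7 (0.57 ± 0.15) and RPL6 (0.91 ± 0.17). With this reference 42.4% of all genes were higher and 2.96% lower, since the reference itself had fallen. Across the 77 canonical genes the H1792 fold change (TMM scaling) had a Spearman rho of −0.27 with GC content. No GC correction was run with the members' sum as the reference.

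**Figure D3:**
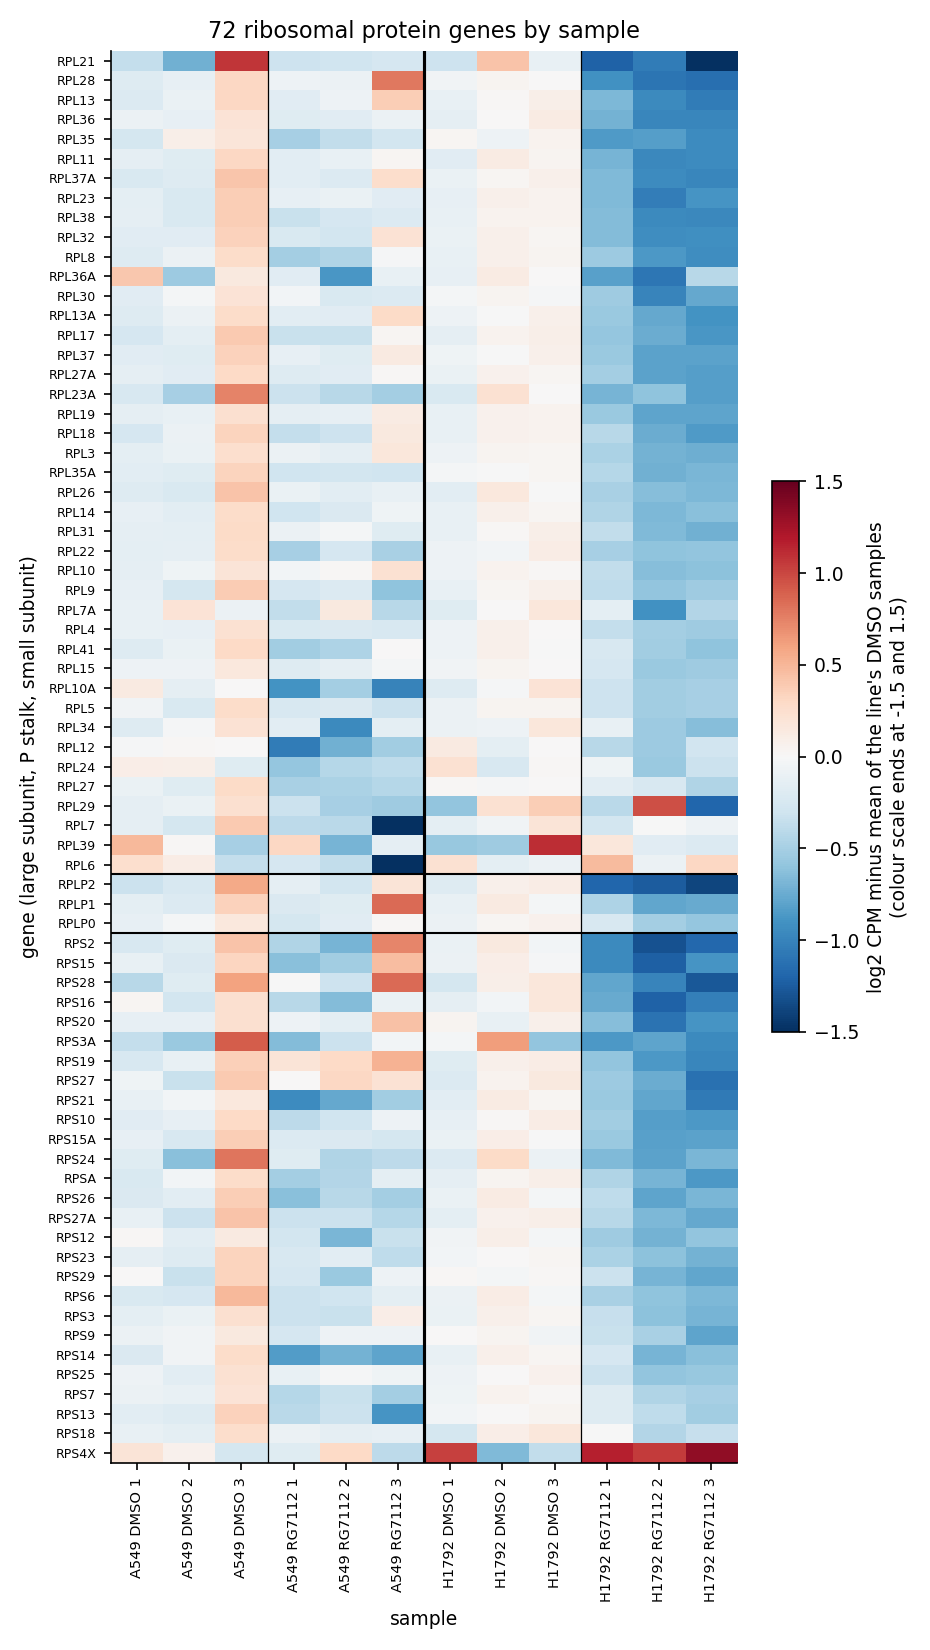
Log2 CPM of 72 canonical genes in each of the 12 libraries, as the difference from the mean of the same line's DMSO libraries (blue lower, red higher, scale ending at −1.5 and 1.5), with large subunit, stalk and small subunit genes in blocks. The H1792 RG7112 columns are blue in nearly every row with RPS4X and RPL6 among the exceptions, and the column of A549 DMSO replicate 3 is red in most rows.

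In A549, no member rose and 2 of 85 fell, against 4.35% and 4.03% of the 10739 genes tested. RPS14, a small subunit protein of the platform, went from 120, 134 and 168 CPM to 77.5, 84.7 and 79.9 CPM (−0.80 ± 0.17, adjusted p = 0.0296). RPL10A, a protein of the mobile L1 stalk, went from 117, 97.4 and 107 CPM to 57.0, 75.1 and 53.1 CPM (−0.80 ± 0.19, adjusted p = 0.0422). No member passed the fold threshold of 1 downward or upward, against 3.02% and 3.18% of all genes. Neither RPS14 nor RPL10A passed in any of the 6 fits that left out 1 library. RPS14 was at an adjusted p of 0.0569 to 0.109 and RPL10A at 0.0509 to 0.148. Log2 fold changes of 73 of the 85 members were below 0, with a median of −0.24 against −0.02 over all genes, and that median was −0.05 without DMSO replicate 3. The groups did not overlap in 22 members, all lower with RG7112, against 16.2% of all genes. Without DMSO replicate 3 they did not overlap in 23 members that were lower, against 23.2%. In 7 of 86 members every RG7112 library then lay higher, against 2510 of the 11185 genes tested. Without replicate 3 of both treatments 8 members fell and 1 rose, RPS19 at 0.43, and the shares of all genes in that fit were not computed. The median there was −0.11 over the members and −0.0039 over all genes.

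The 41 canonical genes with at least 1000 CPM per kb had a median of −0.15 in A549, and the 36 below that level −0.40 over the 35 tested. These medians were 0.04 and −0.26 without DMSO replicate 3. RPL28 was at 2956, 3093 and 4184 CPM with DMSO and at 3201, 3161 and 5813 CPM with RG7112 (0.25 ± 0.27, adjusted p = 0.64, and 0.43 without DMSO replicate 3, adjusted p = 0.446). RG7112 replicate 3 held the highest value, and the groups overlapped. RPS19 was at 4054, 4420 and 6128 CPM with DMSO and 5496, 5867 and 6884 CPM with RG7112 (0.32 ± 0.19, adjusted p = 0.357, and 0.52 without DMSO replicate 3, adjusted p = 0.0882). Scaled to the members' own sum it was the one gene that gained share within the set, by 0.45 ± 0.08 (adjusted p = 0.0228), 1 member against 3.85% of all genes, and no member lost share, against 2.27%.

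**Figure D4:**
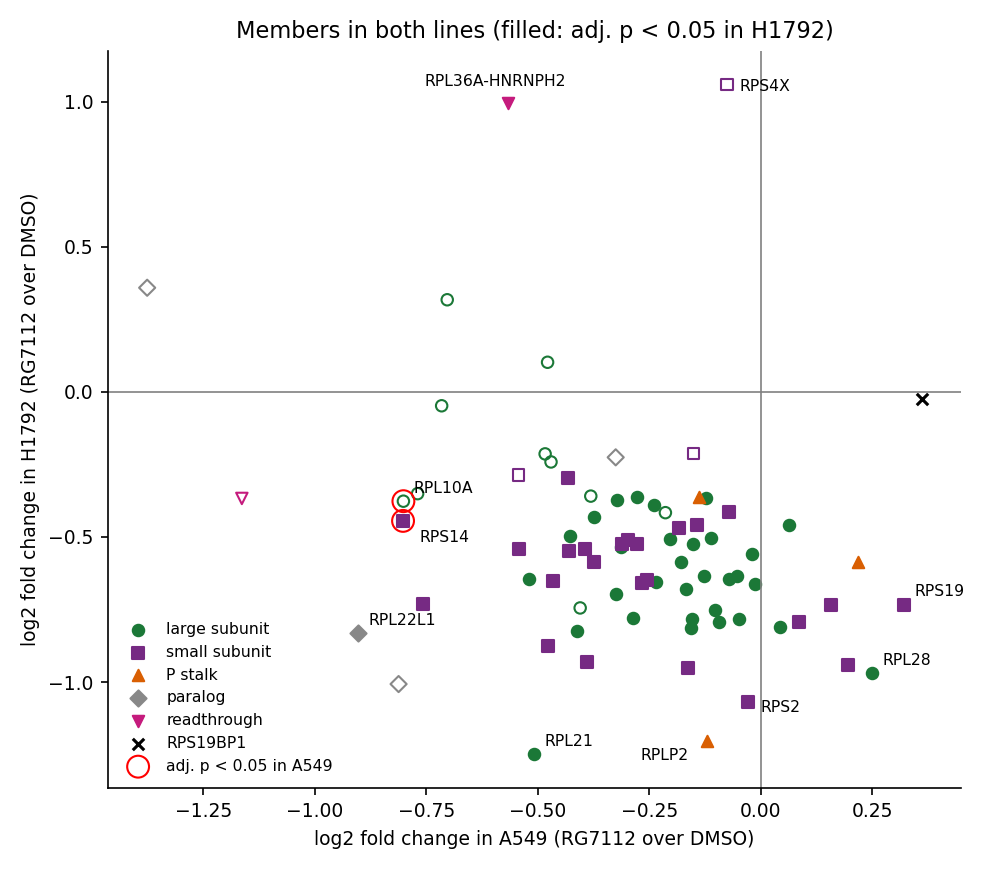
Log2 fold change (RG7112 over DMSO) of 78 members tested in both lines, A549 on the x axis and H1792 on the y axis, with symbols by class, filled symbols for adjusted p under 0.05 in H1792 and red rings for adjusted p under 0.05 in A549 (TMM scaling). Most points lie below 0 on both axes, around −0.24 in A549 and −0.55 in H1792, and RPS14 and RPL10A carry the rings.

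Whether the lines responded differently was tested in 1 fit of all 12 libraries, by subtracting the H1792 response from the A549 response on the log2 scale. The difference passed (adjusted p under 0.05) and was above 0 for 16 of 86 members, against 10.4% of the 11666 genes tested. It passed and was below 0 for 1, RPL36A-HNRNPH2, against 11.4%. Whatever the adjusted p, it was above 0 for 69 members and below 0 for 17, against 5904 and 5762 of all genes. The median was 0.38 over the members and 0.02 over all genes. With library size as the scaling it was −0.01, while that of all genes was −0.37, so the members' direction changed there although their distance from all genes stayed at 0.36. Leaving out single libraries gave 3 to 36 members that passed above 0, with 36 without DMSO replicate 3 of A549, and 40 without replicate 3 of both A549 treatments. The shares of all genes in these fits were not computed. Without DMSO replicate 3 the median was 0.54 over the members and 0.05 over all genes. Without both replicates 3 these medians were 0.49 and 0.02.

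The 16 members that passed with a difference above 0 had log2 fold changes in A549 from −0.17 to 0.32. The difference passed and was above 1 for 3 members and below −1 for 1, against 7.78% and 9.58% of all genes. RPL28 had the largest difference among them, 1.29 ± 0.31 (adjusted p = 0.0152), followed by RPLP2 with 1.16 ± 0.31 (adjusted p = 0.0226) and RPS19 with 1.13 ± 0.24 (adjusted p = 0.0087). The p53-linked large subunit proteins RPL11 (0.77 ± 0.20) and RPL23 (0.70 ± 0.22) were also among them, whereas RPL5 (0.16 ± 0.17, adjusted p = 0.538) and RPL26 (0.45 ± 0.23, adjusted p = 0.18) did not pass. RPLP2 and RPL13 did not pass after a GC correction. RPL36, at 0.73 ± 0.17 before correction (adjusted p = 0.0124), was at 0.04 with the GC correction and at −0.06 with GC and length. RPLP2 and RPS19 were both at 0.53 with GC and length. RPL28 ranged from 0.71 to 1.36 over the alternatives that kept all libraries. Across all genes with a GC value, the Spearman rho of fold change and GC content was 0.25 in A549 and −0.46 in H1792.

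Before treatment the ribosomal protein genes were higher in H1792. Of 86 members 52 passed (adjusted p under 0.05) and were higher in H1792 DMSO than in A549 DMSO, against 22.0% of all genes tested. Another 4 passed and were lower, against 25.5%. The median log2 difference was 0.74 over the members and −0.09 over all genes. Scaled by the members' sum, which sets the set near 0 by construction, these medians were −0.07 and −0.92, so the members lay 0.85 above all genes. With that scaling 23 members passed as higher and 25 as lower, and the shares of all genes were not computed. With TMM scaling the log2 difference passed and was above 1 for 28 members, against 14.6% of all genes, and below −1 for 4, against 20.3%. Without DMSO replicate 3 of A549 it passed and was above 1 for 40 members, and the share of all genes in that fit was not computed. The median there was 0.86 over the members and −0.07 over all genes. The share of counts was 12.3% ± 1.42 in A549 DMSO and 18.2% ± 0.64 in H1792 DMSO (exact permutation p = 0.1). This comparison and the H1792 response share the H1792 DMSO libraries.

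RPL36 was at 513, 501 and 629 CPM in A549 DMSO and at 1725, 1898 and 2068 CPM in H1792 DMSO (1.79 ± 0.12, adjusted p = 6.9e-07). RPL11 differed by 1.67 ± 0.14, RPL22 by 1.60 ± 0.13, RPL5 by 1.51 ± 0.12 and RPL28 by 1.12 ± 0.22, all without overlap. RPS19 (0.01), RPL23 (−0.01), RPL19 (−0.17) and RPL41 (−0.25) did not pass. RPL27 was the 1 canonical gene that passed and was lower in H1792 (−1.22 ± 0.15, adjusted p = 6.18e-05). It was at 86.0, 80.7 and 112 CPM in A549 DMSO and at 40.4, 39.4 and 40.0 CPM in H1792 DMSO.

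The members were then read by role. Of 16 ribosomal proteins for which binding to MDM2 has been described, 15 fell in H1792 and RPL6 did not pass, with a median of −0.53, beside 62 of 84 members and 16.5% of all genes. RPL11 went from 3880, 4739 and 4475 CPM to 2682, 2229 and 2267 CPM (−0.79 ± 0.10, adjusted p = 0.00363), RPL23 changed by −0.78 ± 0.10, RPL26 by −0.52 ± 0.09 and RPL5 by −0.36 ± 0.08 (adjusted p = 0.0126). In A549 RPS14 alone of the 16 passed, against 4.03% of all genes, and RPL5 was at −0.28 and RPL11 at −0.09. Without DMSO replicate 3 none passed there, and the median of the 16 went from −0.17 to −0.02. Of 19 genes mutated in Diamond-Blackfan anaemia, an inherited failure of red cell production, 18 fell in H1792 (median −0.59), again beside 62 of 84 members and 16.5% of all genes, and none passed in A549 (median −0.26), where 3 had an unadjusted p under 0.05 and the median was −0.04 without DMSO replicate 3. RPL27 was the exception in H1792. RPS19, the most often mutated of them, fell by 0.73 ± 0.12 on the log2 scale there (adjusted p = 0.00662).

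FAU, which encodes a small subunit protein fused to a ubiquitin-like sequence, and RACK1, a scaffold on the small subunit, also belong to the mature ribosome and are not taken by the naming rule. FAU was at 1087, 1226 and 1247 CPM in H1792 DMSO and fell by 0.62 on the log2 scale to 876, 698 and 633 CPM (adjusted p = 0.0122), and RACK1 fell by 0.47 (adjusted p = 0.00472). In A549 they were at −0.34 and −0.01, or −0.15 and 0.04 without DMSO replicate 3, and did not pass. They were higher in H1792 DMSO than in A549 DMSO by 0.85 and 1.30.

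Of 16 other TOP genes, mostly translation factors, 14 were tested. In H1792 4 fell, against 16.5% of all genes, and 2 rose, against 17.7%, with a median of −0.16. EEF1D, a subunit of the elongation factor exchange complex, was at −0.89 (adjusted p = 0.00378), EIF3H at −0.43, EEF1B2 at −0.38 and NAP1L1 at −0.31, while EIF4B was at 0.30 and EEF1G, at under 6 CPM in every group mean, at 1.56. In A549 HNRNPA1 alone passed, at −0.71 (adjusted p = 0.0394), against 4.03% of all genes, and it did not without DMSO replicate 3 (−0.65, adjusted p = 0.089). Of 10 tested regulators of TOP mRNA translation 5 fell in H1792, against 16.5% of all genes, namely the translational repressor EIF4EBP1 (−1.96), the S6 kinase RPS6KB2 (−1.23), the mTORC1 subunits RPTOR (−0.79) and MLST8 (−0.58), and TSC2 (−0.36), an inhibitor of RHEB. The S6 kinase RPS6KB1 (0.76) and the mTORC1 activator RHEB (0.32) rose, against 17.7% of all genes. In A549 SESN1, a p53-induced inhibitor of mTORC1, rose by 1.54 (adjusted p = 0.0108), 1 of 11 tested against 4.35% of all genes. It rose by 1.69 without DMSO replicate 3 (adjusted p = 0.0223), and MTOR also passed (1.46, adjusted p = 0.0365).

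Dedicated chaperones hold new ribosomal proteins in solution until assembly. Of 6 tested, 2 fell in A549, against 4.03% of all genes, namely GRWD1, a binding partner of RPL3 (−1.02, adjusted p = 0.0172), and BCCIP (−0.75, adjusted p = 0.0296). Without DMSO replicate 3 GRWD1 fell by 1.07 (adjusted p = 0.0384) and BCCIP did not pass (adjusted p = 0.0636). In H1792 none fell and 2 rose, against 16.5% and 17.7% of all genes, AAMP (0.36, adjusted p = 0.0335) and HEATR3, which serves import of RPL5 (1.46, adjusted p = 0.0437). The difference between the lines passed for GRWD1 (−1.004) and HEATR3 (−1.97).

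**Figure D5:**
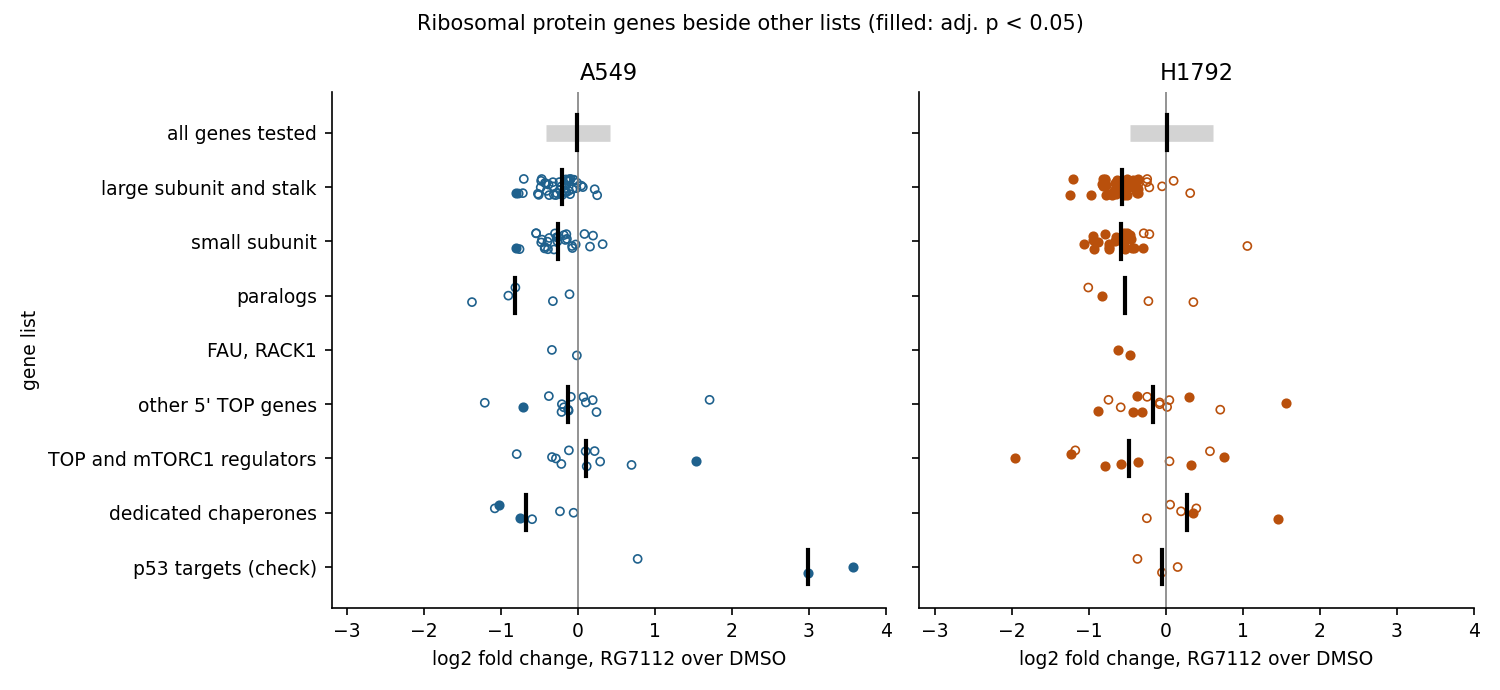
Log2 fold changes (RG7112 over DMSO) in A549 (left) and H1792 (right) for 72 canonical genes and related lists, with 1 point per gene drawn, filled for adjusted p under 0.05 (TMM scaling), and black bars at the medians of the whole lists. The grey bar spans the middle 50% of all genes tested. In H1792 the subunit genes apart from RPL29, RPL6 and RPS4X, and FAU and RACK1 lie left of 0, with subunit medians of −0.57 and −0.59, while chaperones have a median of 0.28.

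Among the paralogs RPL22L1, which shares most of its sequence with RPL22, was lower in H1792 DMSO than in A549 DMSO (19.7, 16.3 and 24.4 against 45.5, 37.1 and 65.1 CPM; −1.30 ± 0.29, adjusted p = 0.00392), whereas RPL22 itself was higher there. RPL26L1 was higher in H1792 (0.75 ± 0.13) and did not pass with RG7112 in either line. RPS4Y1 was at 178 CPM in A549 DMSO and had no count in any H1792 library, which makes it at least 175-fold lower there, counting 3 counts per library as the limit. RPL7L1 and RPL39L varied too much within groups for a call, with values from 0.951 to 41.3 and from 1.39 to 9.99 CPM in A549 RG7112. RPL3L stayed under 0.32 CPM throughout and was tested in no comparison.

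Readthrough symbols overlap canonical genes on the same strand, so their counts cannot be separated with certainty. RPL36A-HNRNPH2 was the 1 member that rose in H1792, from 9.49, 7.83 and 7.83 CPM to 11.3, 17.4 and 18.8 CPM (1.00 ± 0.28, adjusted p = 0.0327), and it did not pass after a GC correction, with the replicate block, without any 1 of the DMSO libraries or without RG7112 replicate 2 or 3. The RPL36A gene that it contains was at −0.74 (adjusted p = 0.0725). RPS10-NUDT3 was higher in H1792 DMSO than in A549 DMSO (1.98 ± 0.28), and RPL17-C18orf32, at most 4.06 CPM, was under the filter in H1792, as RPL39 was in A549. RPS19BP1 was at 0.36 in A549 and −0.02 in H1792 and passed in no comparison.

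RPS27 and its p53-inducible relative RPS27L, kept out of the member list, are given side by side. RPS27L was at 240 ± 84.5 CPM in A549 DMSO and 411 ± 23.7 CPM with RG7112 (0.78, adjusted p = 0.109), and at 96.9 ± 18.8 and 71.4 ± 6.595 CPM in H1792 (−0.37, adjusted p = 0.0922), and the difference between the lines passed (1.22, adjusted p = 0.0208). Without DMSO replicate 3 the A549 value was 1.08 and passed (adjusted p = 0.0291). RPS27, at 19.6, 16.2 and 27.3 CPM in A549 DMSO, was at 0.16 ± 0.26 there and fell by 0.74 ± 0.19 in H1792 (adjusted p = 0.0262).

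Other protein-coding genes overlap 38 of the 87 members, 29 of them on the opposite strand, among them UBE2S at RPL28 and PIDD1, a p53 target, at RPLP2. Whether counting used strand is not given in the sources used here.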

How the data were processed

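Poly(A) RNA of 12 libraries was sequenced, and the deposited file holds estimated counts per gene that the authors made with kallisto 0.45.0 on GRCh38 (Ensembl release 95). These were rounded to whole numbers. Symbols, lengths and pseudogenes came from GENCODE 29, which held 18011 of the 20595 identifiers. Genes were filtered with filterByExpr (minimum count 10, minimum total 15), scaled by TMM and tested with edgeR 4.0.16 (R 4.3.3) by quasi-likelihood with robust dispersion, per line on 6 libraries and for the difference between responses and the untreated lines on all 12. P-values were adjusted over all genes tested by Benjamini-Hochberg with a threshold of 0.05. CPM values were TMM-scaled over all 12 libraries. Alternatives used DESeq2 1.42.0, limma 3.58.1, other scalings, filters, GC and length corrections, a replicate block and libraries left out. The tests were tested on simulated data. RPS25 and RPL7A share identical counts with an unnamed row. Named genes were RPL28, MDM2 binders, stalk and other fixed members, and the members with the largest changes passing each test, and others were named after their values were seen. Some genes that count in the sums, counts and medians are not reported here by name or drawn. Members and lists were chosen with earlier results of these data known.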

Additional observations from a re-analysis of the deposited data

Results flagged for a closer look

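The response to RG7112 differed between the lines for some members, by the interaction term of the 12-library edgeR fit (adjusted p under 0.05). For 16 members the log2 fold change was higher in A549 than in H1792, against 10.4% of all genes tested. For 1 member it was lower, against 11.4%. Among the differences, A549 minus H1792, were 1.29 for RPL28, 1.16 for RPLP2, 1.13 for RPS19, 0.95 for RPS20, 0.93 for RPL13, 0.81 for RPL37A, 0.77 for RPL11 and 0.73 for RPL36. Further values were 0.72 for RPL13A, 0.70 for RPL23, 0.66 for RPL19, 0.65 for RPL37, 0.61 for RPL3, 0.60 for RPL10 and 0.59 for RPL30. RPL36A-HNRNPH2 was at −1.48. RPLP2 and RPL13 did not pass after a GC correction. With a GC and length correction RPL36 was at −0.06, and RPLP2 and RPS19 were both at 0.53. With 3 libraries per group no test for a single deviating library was made.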

How the results depend on the processing

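Counts in this section are of members, and the shares of all genes were not computed for most of these fits. In H1792 the count of members that fell (62) was 47 to 64 when single libraries were left out, and 14 when libraries were scaled by the summed member counts. The count past −1 on the log2 scale (5) was 8 with all 12 libraries in one fit and with a GC and length correction, 19 with a GC correction, 17 with the replicate block and GC correction, 1 by library size only and 1 scaled by the members, and 3 to 9 with libraries left out. The count that rose (1) was 2 by library size only, 16 scaled by the members, 0 at adjusted p under 0.01, with either correction, without paralogs and readthroughs, and with the block with or without GC, and 0 to 2 with libraries left out. The H1792 median (−0.55) was −0.71 with GC, −0.30 by library size only, −0.70 with the block and GC and 0.0501 scaled by the members, and −0.67 to −0.51 with libraries left out.
In A549 the count that fell (2) was 0 at adjusted p under 0.01 and scaled by the members, 8 with all 12 libraries, 4 with at least 10 counts in every library and with GC and length, 6 with DESeq2, 5 with GC, 1 with the replicate block, 6 with the block and GC, 8 without replicate 3 of both treatments, and 0 to 2 with libraries left out. The count past −1 (0) was 1 with all 12 libraries and without both replicates 3, and 0 to 1 with libraries left out. The count that rose (0) was 1 scaled by the members and without both replicates 3. The A549 median (−0.24) was −0.14 with GC and length, −0.11 scaled by the members, −0.11 without both replicates 3 and −0.32 to −0.05 with libraries left out.
Differences between the lines that passed and were above 0 (16) numbered 1 at adjusted p under 0.01, 26 with DESeq2 and 7 without a filter. They numbered 4 by library size only and scaled by the members, 40 without both A549 replicates 3 and 3 to 36 with libraries left out. Those that passed and were below 0 (1) numbered 0 at adjusted p under 0.01, without paralogs and readthroughs and with the block and GC. They numbered 7 by library size only, 9 scaled by the members, 2 with the block and without both replicates 3, and 1 to 2 with libraries left out. The median difference over all members (0.38) was −0.0102 by library size only and −0.15 scaled by the members, and 0.25 to 0.54 with libraries left out. RPL36 was at −0.0587 with GC and length and RPL41 at −0.43 scaled by the members.
Between untreated lines the count higher in H1792 (52) was 23 scaled by the members and 46 to 58 with libraries left out, and past 1 (28) it was 2 and 24 to 40. The count lower (4) was 9 by library size only, 1 without paralogs and readthroughs, 25 scaled by the members and 4 to 6 with libraries left out. The median (0.74) was 0.92 with GC and length, 0.99 with GC, 0.49 by library size only, −0.0668 scaled by the members and 0.62 to 0.86 with libraries left out.
Scaled by the members, the H1792 responses of RPL10 (0.14), RPL22 (0.11), RPL26 (0.0804), RPL3 (0.0437), RPL41 (0.22), RPL5 (0.24), RPLP0 (0.24), RPLP1 (0.014), RPS14 (0.15), RPS6 (0.0945) and RPSA (0.012) and the untreated differences of RPL10 (−0.0648), RPL26 (−0.47), RPLP0 (−0.32), RPS14 (−0.55), RPS19 (−0.79), RPS6 (−0.10) and RPSA (−0.40) reversed, since that scaling sets the sum of the members equal. For the other changes the cause was not tested.
Differences in share with libraries left out were −1.92 to −0.66 percentage points in A549, −4.46 to −3.52 in H1792 and 5.42 to 6.67 between untreated lines. The median level per length was 551 CPM per kb with the longest transcript. Same-numbered libraries had correlations of deviations of 0.163, 0.075 and 0.317 in A549 and −0.051, −0.027 and −0.0015 in H1792, and the labels do not pair them. With the replicate block 44 members fell in H1792, all among the 62.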

Other observations

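Some TOP mRNAs that are abundant in most cells were listed at low values. EEF1A1, the main elongation factor, was at 12.8 ± 1.48 CPM in A549 DMSO and 10.7 ± 1.92 CPM in H1792 DMSO (SD, n = 3), EEF2 at 16.5 ± 1.51 and 31.0 ± 16.0 CPM, and EIF3F at 1.66 ± 0.53 and 2.05 ± 0.29 CPM. EIF3E was at 0.454 ± 0.786 CPM in A549 DMSO and had no count in H1792 DMSO.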
